A study of Mus musculus with 48 samples.

Results

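A set of 10 genes of glutathione conjugation and oxidant defence were followed across 4 hindlimb muscles of the mouse before birth and in adulthood. They were the glutathione transferases Gstm1, Gstm2 and Mgst1, the quinone reductase Nqo1, the epoxide hydrolase Ephx2, xanthine dehydrogenase (Xdh), heme oxygenase Hmox1, the glutathione synthesis subunit Gclc, catalase (Cat) and the flavin monooxygenase Fmo2. These 10 genes, out of 27179 in the count table, were listed by name. Earlier results of these data were known by then, among them the Gstm2 difference between muscles, so the Gstm2 tests are no independent support. Gstm1, Mgst1 and Nqo1 were chosen by their CPM (counts scaled to a common library size) over the 8 groups of stage and muscle, so their values are a description with no test. The other 7 were tested, and all 7 passed the filter on low counts in each of the 13 comparisons, Fmo2 in some of them only through the group where it is high.

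RNA was sequenced from 6 fetuses at E18.5, close to birth, and from 6 adults, all males of the inbred FVB/NJ strain with no transgene or deletion named in the labels. For the adults the design text names postnatal day 56, and the growth protocol an age of 3 to 4 months. Each stage gave a slow-biased and a fast-biased muscle of the shank (soleus, gastrocnemius) and of the thigh (vastus intermedius, vastus lateralis), a division taken from the labels. Each muscle of each animal gave 1 library of the whole muscle, and no animals were pooled. The date tag of the columns was used as the animal and is called a collection (A to F in each stage, letters not linked between stages). Several collections share a date, and the labels name no litters.

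An adult library, labelled as the vastus intermedius of collection B, was left out. It held 8921 CPM of the embryonic myosin gene Myh3, against 6.22 to 22.9 in the other adult vastus intermedius libraries and 8452 to 13510 at E18.5. The 47 libraries used, 23 adult and 24 at E18.5, came from a set with 14.9 to 32.4 M counts (median 22.8 M). Summed over 10 muscle fibre genes, libraries held 14336 to 52664 CPM at E18.5 and 109075 to 341956 CPM in adults, and none of these genes was at 0 in any group. CPM were scaled by TMM (trimmed mean of M values), which sets the bulk of the genes level between libraries. Its factors ran from 0.525 to 0.922 in adult and from 1.21 to 1.52 in E18.5 libraries. Values with scaling by library totals alone are given beside results whose direction or call they change.

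Glutathione is a small thiol built from glutamate, cysteine and glycine. Glutamate-cysteine ligase, whose catalytic subunit is Gclc, carries out the rate-limiting step, and glutathione transferases attach the product to reactive electrophiles. Catalase breaks down hydrogen peroxide in peroxisomes, Nqo1 reduces quinones by a pair of electrons at once, and Hmox1 opens the heme ring. Several of these genes are known targets of the transcription factor NRF2, which binds the antioxidant response element. In skeletal muscle, slow oxidative fibres hold more mitochondria and peroxisomes than fast glycolytic ones.

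Gstm1 and Gstm2 lie close together on mouse chromosome 3, at chr3:108012250-108017973 and chr3:107981702-107986420 (GRCm38.p6, minus strand), and were the members higher in fast-biased adult muscle. RefSeq windows on GRCm38.p6, from 250 bases before to 50 after a start site, are shown first, at chr3:108017924-108018223 (the first of 2 Gstm1 windows) and chr3:107986371-107986670 on the minus strand. Capitals mark the 2 runs of 9 bases that both windows hold, the greatest length they share, which stand in different places relative to the start. How often the windows of unrelated genes share runs of this length was not tested.
Gstm1: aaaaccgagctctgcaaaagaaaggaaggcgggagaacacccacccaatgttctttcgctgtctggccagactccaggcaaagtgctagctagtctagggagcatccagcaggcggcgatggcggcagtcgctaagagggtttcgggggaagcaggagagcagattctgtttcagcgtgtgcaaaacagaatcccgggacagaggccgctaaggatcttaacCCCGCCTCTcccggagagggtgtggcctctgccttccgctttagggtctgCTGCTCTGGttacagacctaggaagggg
Gstm2: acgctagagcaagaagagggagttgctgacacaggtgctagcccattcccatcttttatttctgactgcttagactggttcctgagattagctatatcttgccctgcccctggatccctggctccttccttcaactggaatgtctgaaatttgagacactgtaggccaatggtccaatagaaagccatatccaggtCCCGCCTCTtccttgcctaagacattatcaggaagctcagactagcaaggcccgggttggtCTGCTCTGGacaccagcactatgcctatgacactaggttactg
The third window is the first of 2 for Mgst1 (chr6:138140277-138140576, plus strand), the transferase with the opposite order of muscles. It was the only window among the members in the promoter table that held the core of the antioxidant response element, TGACNNNGC, searched on both strands. Capitals mark the match, which reads on the minus strand and begins 56 bases before the start.
Mgst1: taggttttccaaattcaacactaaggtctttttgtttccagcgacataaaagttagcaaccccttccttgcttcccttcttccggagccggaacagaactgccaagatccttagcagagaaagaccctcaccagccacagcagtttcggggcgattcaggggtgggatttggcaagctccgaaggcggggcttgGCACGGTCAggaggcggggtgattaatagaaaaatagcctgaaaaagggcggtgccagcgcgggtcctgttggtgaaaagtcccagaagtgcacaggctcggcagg
Of 32851 promoter windows in the RefSeq table, 4071 (12.4%) held this motif. The second Mgst1 window and the windows of Gstm1, Gstm2, Nqo1, Cat and Fmo2 held no match to these letters. Ephx2, Xdh, Hmox1 and Gclc had no window in the table.

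Per length, Cat was the most abundant of the 10 genes in adult soleus, at 328 ± 41.4 TPM (read counts scaled by gene length and library, mean ± SD, n = 6). Ephx2 (219 ± 40.6 TPM), Mgst1 (195 ± 29.01 TPM) and Gstm1 (159 ± 28.96 TPM) followed, and Hmox1 was lowest at 15.5 ± 2.65 TPM. The order differed in adult vastus lateralis, where Gstm1 led at 231 ± 24.3 TPM (n = 6), before Gstm2 at 86.0 ± 8.91 TPM and Cat at 46.5 ± 7.55 TPM. In E18.5 gastrocnemius, Gstm1 (88.1 ± 13.1 TPM), Cat (69.5 ± 4.58 TPM) and Gstm2 (59.1 ± 10.2 TPM) were also the leading members, and Xdh was lowest at 0.684 ± 0.231 TPM. Reads of Gstm1 and Gstm2 can be shared with close relatives. Of the 50-base words in Gstm1 transcripts, 18.9% occurred in transcripts of other genes, among them Gstm2-ps1 and Gstm3, and the share was 5.65% for Gstm2 and 7.14% for Xdh. It was 0 for the other 7 members.

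**Figure D1:**
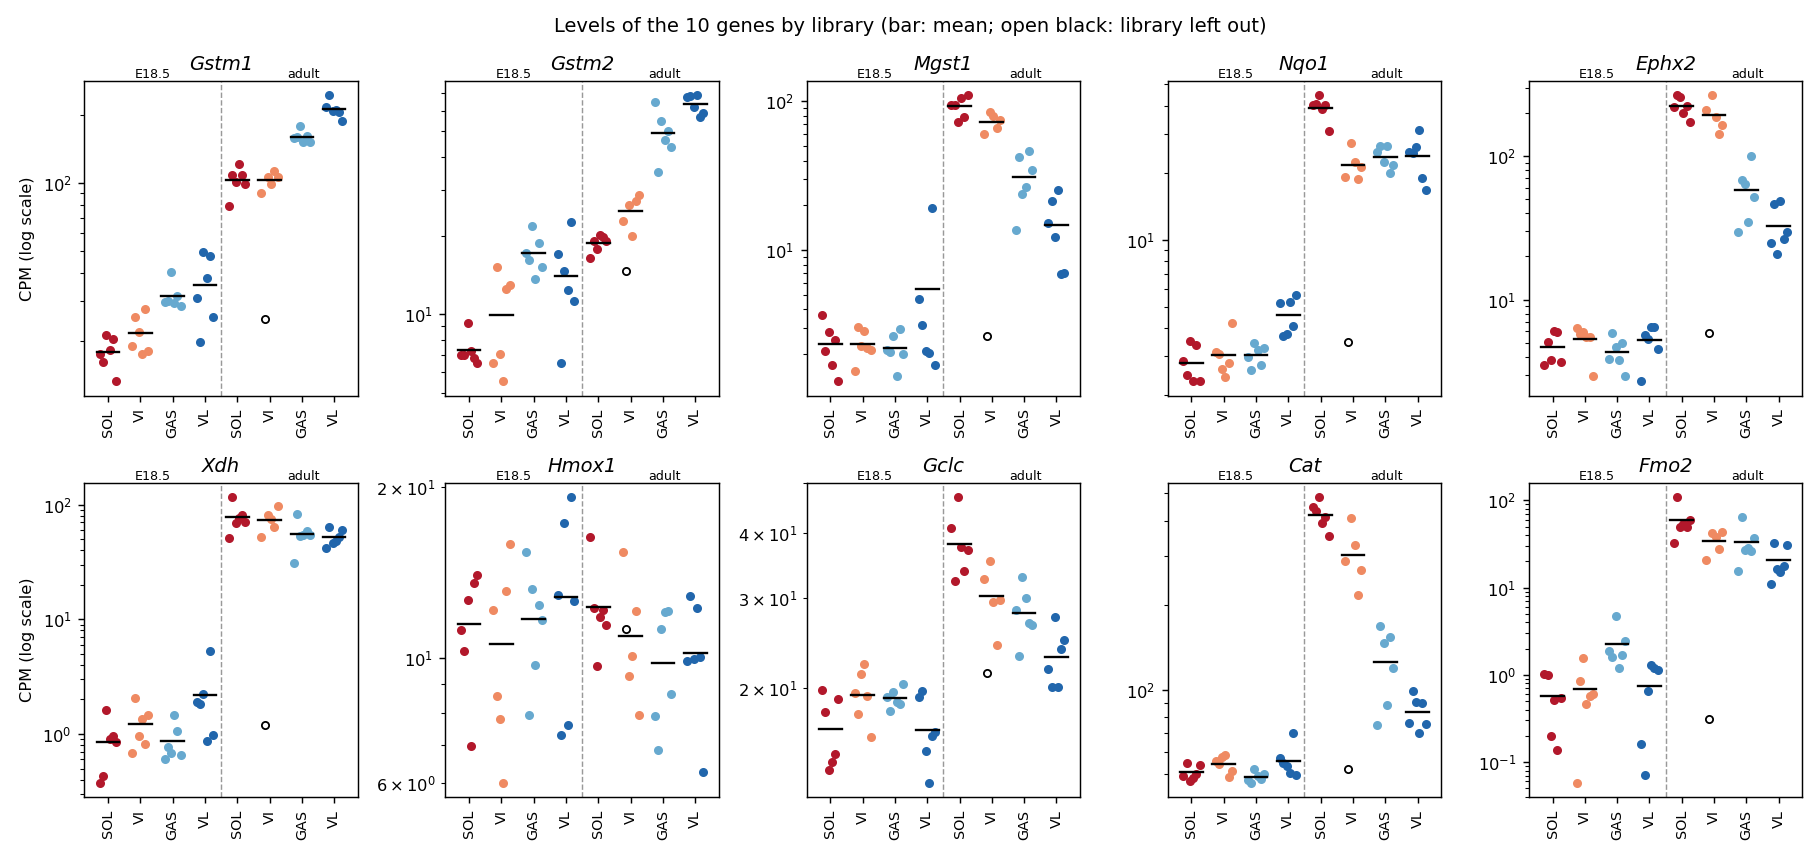
TMM-scaled CPM (log axis) of the 10 genes in each library, by muscle (SOL soleus, VI vastus intermedius, GAS gastrocnemius, VL vastus lateralis) and stage, with the group mean as a bar and the library left out as an open circle. Cat, for example, ran from 70.4 to 485 CPM in adults and from 46.5 to 69.9 CPM at E18.5, while the ranges of Hmox1 overlapped between all 8 groups.

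Among the 3 picked genes, Gstm1 had the higher level in fast-biased muscle at both stages. Adult vastus lateralis libraries held 188 to 244 CPM (median 208), gastrocnemius 151 to 179 (median 159) and soleus 79.2 to 121 (median 105). The 5 vastus intermedius libraries held 90.4, 106, 99.0, 113 and 106 CPM. The 3 levels of vastus lateralis, gastrocnemius and the slow-biased muscles did not overlap, whereas soleus and vastus intermedius did. At E18.5 the same gene ran from 28.6 to 40.3 CPM in gastrocnemius and from 13.2 to 21.3 CPM in soleus, with no overlap. Between E18.5 vastus intermedius (17.4 to 27.5 CPM) and vastus lateralis (19.8 to 49.3 CPM) the ranges overlapped.

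Mgst1, a membrane-bound transferase, had the reverse order in adults. Soleus held 72.6 to 109.9 CPM (median 94.6) and the 5 vastus intermedius libraries 60.0, 84.6, 79.9, 66.0 and 75.0 CPM, against 13.7 to 46.3 CPM in gastrocnemius and 6.95 to 25.2 CPM in vastus lateralis. No slow-biased library overlapped a fast-biased one. At E18.5 Mgst1 lay between 1.31 and 4.72 CPM in 23 of the 24 libraries, and the vastus lateralis library of collection E held 19.1 CPM. That library also had the highest summed markers of E18.5 vastus lateralis for fibroblasts and fibro-adipogenic cells (2114 CPM, others 1272 to 1707), macrophages (386 CPM, others 138 to 265) and adipocytes (80.4 CPM, others 4.02 to 60.3). Their part in the Mgst1 value was not tested.

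Nqo1 differed from both transferases in that soleus alone had a higher mean, though its range overlapped that of vastus lateralis. Adult soleus held 30.7 to 44.6 CPM (median 40.4), whereas vastus intermedius (18.8 to 27.3 CPM), gastrocnemius (19.9 to 26.5 CPM) and vastus lateralis (16.7 to 31.2 CPM) overlapped each other. Vastus intermedius, the other slow-biased muscle, had a mean of 21.8 ± 3.43 CPM (SD, n = 5) against 23.8 ± 5.22 CPM in vastus lateralis (n = 6), a fitted log2 difference of -0.09 that became 0.21 with library totals. E18.5 libraries held 2.31 to 5.65 CPM of Nqo1, and none reached an adult level.

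In adults, most of the tested members were higher in slow-biased than in fast-biased muscle, and Gstm2 was lower. Of the 7 tested, 5 rose (Ephx2, Xdh, Gclc, Cat and Fmo2) and Gstm2 fell at an edgeR adjusted p under 0.05. Of all genes tested, 66.0% were called in that comparison (35.9% higher, 30.1% lower), so a call was common. The median log2 fold change was 0.52 over the 7 members and 0.08 over all genes. Hmox1 differed by 0.25 ± 0.13 (log2 ± SE, adjusted p = 0.102), a call that appeared with library totals (0.59, adjusted p = 0.000368).

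Ephx2, soluble epoxide hydrolase, which opens fatty acid epoxides, and catalase had the largest differences. Adult soleus held 172 to 264 CPM of Ephx2 (median 221), gastrocnemius 29.6 to 100.2 (median 57.9) and vastus lateralis 20.8 to 48.6 (median 27.97). The 5 vastus intermedius libraries held 209, 265, 186, 143 and 164 CPM. Slow-biased and fast-biased libraries did not overlap. The difference was 2.29 ± 0.18 on the log2 scale (4.89-fold, adjusted p = 1.16e-10), and it was higher in slow-biased muscle in 5 of 5 animals with all 4 muscles.

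Cat gave the same picture at a higher level. Soleus held 352 to 485 CPM (median 423), vastus intermedius 287, 410.1, 328, 218 and 267 CPM, gastrocnemius 74.7 to 168 (median 133) and vastus lateralis 70.4 to 99.0 (median 83.0). No slow-biased library overlapped a fast-biased one. Catalase rose by 1.83 ± 0.12 (3.57-fold, adjusted p = 6.5e-12), by 1.78 ± 0.17 in the shank pair and 1.89 ± 0.18 in the thigh pair.

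Gstm2, a cytosolic mu-class transferase, was the only tested member lower in slow-biased muscle. Soleus held 16.5 to 20.04 CPM (median 19.03) and vastus intermedius 22.8, 26.1, 19.9, 27.1 and 28.6 CPM, while gastrocnemius held 35.1 to 64.7 (median 48.3) and vastus lateralis 56.6 to 68.7 (median 65.0). These ranges were apart as well. Gstm2 fell by 1.34 ± 0.08 (adjusted p = 1.78e-12), with almost the same value in the shank (-1.36 ± 0.11) and the thigh (-1.32 ± 0.12).

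Gclc, Xdh and Fmo2 rose by less, and their ranges overlapped. Gclc held 32.3 to 47.0 CPM in soleus, 24.3 to 35.3 in vastus intermedius, 23.1 to 32.97 in gastrocnemius and 20.1 to 27.5 in vastus lateralis, a difference of 0.45 ± 0.08 (adjusted p = 2.58e-05). Xdh, whose product makes uric acid and can release superoxide, differed by 0.52 ± 0.14 (adjusted p = 0.00203). Fmo2, an oxidase of nitrogen and sulfur compounds, differed by 0.81 ± 0.23 (adjusted p = 0.00298). All 3 were higher in slow-biased muscle in 5 of 5 animals. With the doubted library kept under its label, Xdh (0.37, adjusted p = 0.317) and Fmo2 (0.66, adjusted p = 0.126) were no longer called.

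By pair, soleus against gastrocnemius called 6 of the 7, where 53.5% of all genes were called (27.7% higher, 25.9% lower), and Hmox1 was called as well with library totals (0.74, adjusted p = 0.0013). Vastus intermedius against vastus lateralis called 5 (background 52.2%, 27.9% higher and 24.3% lower). The exception was Fmo2 in the thigh pair, at 0.77 ± 0.33 with an adjusted p of 0.0522. With the collection as a replicate block its difference was 1.01 and its adjusted p 8.19e-07. It was also called with library totals (1.06, adjusted p = 0.0107), with RLE size factors (0.77, 0.0498) and without collection A (0.77, 0.0385) or B (0.94, 0.00451). Without collection C, D or E, Xdh (0.50 to 0.52, adjusted p 0.0594 to 0.0757) and Fmo2 (0.84 in each, 0.0592 to 0.0632) lost their call in the shank pair, with differences close to 0.51 and 0.86 over all animals. Xdh in the thigh pair lost its call without C, D or F (0.46 to 0.52, adjusted p 0.0851 to 0.125). With the doubted library kept, Xdh (0.49, 0.398) and Fmo2 (0.84, 0.206) were not called in the shank pair, nor Xdh in the thigh pair (0.25, 0.659).

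**Figure D2:**
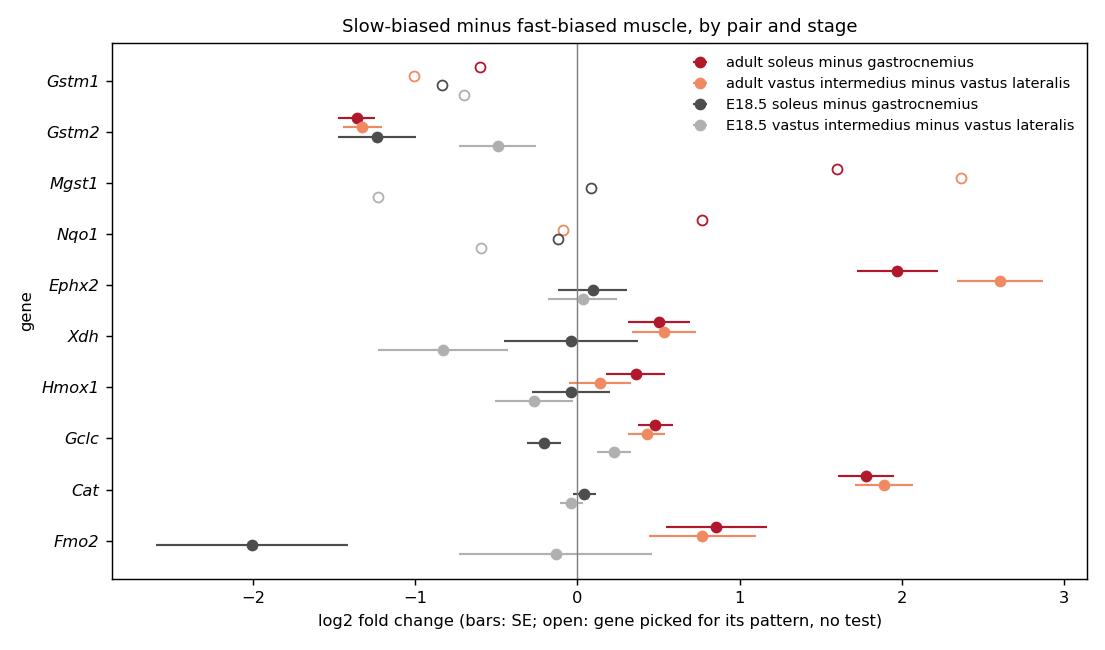
Fitted log2 fold change (TMM scaling) of slow-biased minus fast-biased muscle for each gene in the shank pair (soleus minus gastrocnemius) and the thigh pair (vastus intermedius minus vastus lateralis) of each stage, with SE bars for tested genes and open symbols for genes picked for their pattern. Ephx2 and Cat lie between 1.78 and 2.61 in adults and near 0 at E18.5, while Gstm2 lies below 0 in all 4 pairs.

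Several lists of cell type markers moved with the adult comparison, in which 35.9% of all genes were higher and 30.1% lower. All 7 tested endothelial, all 8 macrophage and all 7 smooth muscle and pericyte markers rose in slow-biased muscle, and 9 of 10 muscle fibre markers fell. Of the fibroblast markers 5 of 8 rose, and of the adipocyte markers 2 of 8, the latter below the share over all genes. The muscle fibre list includes the fast-fibre genes Mylpf, Tnnc2 and Tnnt3, so its fall is not a measure of fibre content. Summed endothelial markers ranged from 599 to 871 CPM in slow-biased and from 279 to 569 CPM in fast-biased adult libraries, with Cldn5 listed at 0. Erythroid sums ran from 78.3 to 190 CPM in slow-biased and from 15.9 to 71.5 CPM in fast-biased libraries, while tendon sums overlapped. In whole muscle, fewer cells of a type and less RNA per cell cannot be told apart, and the part of these cells in the members' differences was not tested.

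Thigh against shank muscle was a second difference among adults, and 5 of the 7 tested members were called in it (background 19.1%, 11.6% higher and 7.55% lower). Gstm2 rose by 0.41 ± 0.08 in the thigh (adjusted p = 0.00105). Cat fell by 0.52 ± 0.12 (adjusted p = 0.00391), Gclc by 0.29 ± 0.08 (0.0115), Fmo2 by 0.73 ± 0.23 (0.0264) and Ephx2 by 0.51 ± 0.18 (0.0456). Cat, Gclc and Fmo2 were lower in the thigh in 5 of 5 animals. The picked Mgst1 and Nqo1 also had lower means in the thigh, 41.2 against 62.0 CPM and 22.9 against 31.4 CPM. Only 2 members were called with the doubted library, and Ephx2 was lost with the replicate block (-0.46, adjusted p = 0.0722) and without collection B, C, E or F (0.0723 to 0.281). Fmo2 was lost without B, D or E (0.0527 to 0.091), and Gclc without D (0.0661). In this comparison 3 of 6 tendon markers fell in the thigh and 4 of 10 muscle fibre markers rose, while none of the endothelial, macrophage and adipocyte markers was called, and their part in the members was not tested.

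Before birth the muscles of each pair were closer. Only Gstm2 was called among the 7, where 0.368% of all genes were (0.146% higher, 0.222% lower). Soleus held 6.50 to 9.23 CPM and gastrocnemius 13.6 to 21.7 CPM, with no overlap, whereas vastus intermedius (5.54 to 15.2 CPM) and vastus lateralis (6.52 to 22.5 CPM) overlapped. Gstm2 fell by 0.86 ± 0.17 over both pairs (adjusted p = 0.0213) and by 1.24 ± 0.24 in the shank (adjusted p = 0.0221, background 0.286%, 0.0952% higher and 0.19% lower). The thigh pair gave -0.49 ± 0.24 (adjusted p = 0.779). The call over both pairs was lost without collection A, C, D, E or F (adjusted p 0.0625 to 0.147) and the call in the shank likewise (0.0603 to 0.077), with fewer animals in each such fit. The Gstm2 difference was already known when the gene was listed, so its tests at either stage are no independent support.

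No tested member was called by edgeR or DESeq2 in the E18.5 thigh pair (background 0.0317%, 0.00635% higher and 0.0254% lower). An unadjusted edgeR p under 0.05, a threshold to which that background does not apply, was reached by 2 of 7, Xdh and Gclc. Catalase held 46.5 to 69.9 CPM over the 24 embryonic libraries, and its slow-biased minus fast-biased difference had a 95% interval of -0.10 to 0.10 on the log2 scale. For Ephx2 the interval was -0.23 to 0.36, with 2.69 to 6.49 CPM over the libraries. Fmo2 was low, from 0.0574 to 4.77 CPM, and all 6 gastrocnemius libraries (1.21 to 4.77 CPM) were above all 6 soleus libraries (0.136 to 1.01 CPM). Only 4 of the 6 soleus libraries lay above the count filter. That difference was -2.002 ± 0.59 with an adjusted p of 0.179 in edgeR and 0.0484 in DESeq2. In E18.5 thigh against shank, Xdh rose by 0.90 ± 0.29 (adjusted p = 0.0238, background 24.8%, 14.1% higher and 10.7% lower), from 0.865 to 1.70 CPM on average. Its vastus lateralis library of collection E held 5.25 CPM against 0.866 to 2.23 in the others, and the call was lost without collection A, B or E (0.0577 to 0.112).

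The slow-to-fast difference was tested between the stages, and 6 of the 7 members differed (background 50.8%, 26.6% higher and 24.2% lower). It was more positive in the adult by 2.19 ± 0.24 for Ephx2 (adjusted p = 2.2e-10), 1.80 ± 0.13 for Cat (4.46e-15), 1.85 ± 0.45 for Fmo2 (0.000573), 0.93 ± 0.31 for Xdh (0.012) and 0.41 ± 0.11 for Gclc (0.00156). For Gstm2 it was more negative, by -0.51 ± 0.19 (adjusted p = 0.0262). The Fmo2 value includes an uncalled E18.5 difference of -1.07 ± 0.42 (adjusted p = 0.296) at low levels. There 4, 5 and 4 of the 6 libraries of soleus, vastus intermedius and vastus lateralis lay above the count filter. With library totals the Gstm2 difference was -0.13 (adjusted p = 0.582) and the other 5 calls held, while Hmox1 was called (0.75, adjusted p = 0.00501). Gstm2 was also lost without adult collection A, C or D or E18.5 collection B or F (0.0724 to 0.128). Xdh was lost with the doubted library (0.145) and without E18.5 collection E (0.0821).

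Between E18.5 and adulthood, Gstm2, Ephx2, Xdh, Gclc and Cat rose in each of the 4 muscles under TMM scaling and Hmox1 was not called. With library totals Gclc turned negative in 3 muscles and Cat in vastus lateralis, and Hmox1 was called lower in all 4. Cat in gastrocnemius and Gstm2 in vastus intermedius then lost their calls. The background under TMM was 76.0% for soleus (36.3% higher, 39.7% lower), 76.1% for vastus intermedius (36.9% and 39.2%), 82.2% for gastrocnemius (38.2% and 44.0%) and 79.0% for vastus lateralis (36.4% and 42.6%), so a call was the rule among all genes. Library totals shifted the median of all genes by -0.69, -0.76, -1.10 and -1.05 log2 units in these muscles, and the share of calls that were higher in the adult went from 47.8%, 48.5%, 46.5% and 46.0% to 23.4%, 21.4%, 18.2% and 16.6%. Rises are therefore relative to the bulk of the genes.

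Xdh rose most of these in every muscle. It held 0.373 to 5.25 CPM at E18.5 and 30.8 to 116 CPM in adults, and it rose by 6.47 ± 0.31 in soleus, 5.96 ± 0.26 in gastrocnemius, 5.94 ± 0.26 in vastus intermedius and 4.54 ± 0.36 in vastus lateralis. In soleus and vastus lateralis, where 4 of the 6 E18.5 libraries lay above the count filter, Fmo2 passed it only through the adult libraries. In vastus intermedius 5 of the 6 E18.5 libraries lay above it. The Fmo2 levels in these 3 muscles are given as a description. They ran from 0.136 to 1.01 CPM at E18.5 and from 32.1 to 109 CPM in adult soleus, from 0.0574 to 1.56 and 20.8 to 43.6 CPM in vastus intermedius, and from 0.0717 to 1.299 and 10.9 to 32.2 CPM in vastus lateralis. The stages did not overlap, and the embryonic counts in these 3 muscles ran from 2 to 49 reads per library. In gastrocnemius, where every library lay above the filter, Fmo2 rose by 3.83 ± 0.37, and by 2.73 with library totals. The lowest rise of Xdh with library totals was 3.49, in vastus lateralis.

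Ephx2 rose most in the slow-biased muscles, by 5.56 ± 0.18 in soleus and 5.20 ± 0.21 in vastus intermedius, against 3.71 ± 0.28 in gastrocnemius and 2.62 ± 0.25 in vastus lateralis. The mean in soleus went from 4.67 to 223 CPM and in vastus lateralis from 5.20 to 32.7 CPM, with no overlap of the stages in either. Gstm2 rose by 2.15 ± 0.22 in vastus lateralis, 1.48 ± 0.14 in gastrocnemius, 1.34 ± 0.25 in vastus intermedius and 1.33 ± 0.11 in soleus. With library totals its rise in vastus intermedius was 0.57 (adjusted p = 0.0507).

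Cat and Gclc depended on the scaling in the fast-biased muscles. Cat rose by 3.03 ± 0.10 in soleus and 2.49 ± 0.14 in vastus intermedius and kept both calls with library totals (2.33 and 1.74). In gastrocnemius its rise of 1.31 ± 0.17 (adjusted p = 1.94e-06) became 0.22 (adjusted p = 0.232), and in vastus lateralis 0.55 ± 0.11 (adjusted p = 0.000223) became -0.50 (adjusted p = 0.000925). Gclc rose by 1.17 ± 0.12 in soleus, and by 0.46 with library totals. Its TMM differences of 0.66 ± 0.11, 0.50 ± 0.08 and 0.44 ± 0.12 in vastus intermedius, gastrocnemius and vastus lateralis became -0.09, -0.60 and -0.61 with library totals, so the direction turned in these 3 muscles.

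Hmox1, an inducible enzyme, held 6.00 to 19.2 CPM at E18.5 and 6.27 to 16.4 CPM in adults. Its differences ran from -0.36 ± 0.24 in vastus lateralis to 0.08 ± 0.16 in soleus, with adjusted p from 0.125 to 0.832. With library totals all 4 were negative, from -0.62 in soleus to -1.42 in vastus lateralis (adjusted p 0.0247 at most). Among the picked genes, Gstm1, Mgst1 and Nqo1 had higher means in adults in all 4 muscles. In soleus the means went from 17.8 to 103 CPM for Gstm1, from 2.35 to 92.7 for Mgst1 and from 2.80 to 39.3 for Nqo1. Only Mgst1 in vastus lateralis had overlapping ranges between the stages, through the E18.5 library of collection E.

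**Figure D3:**
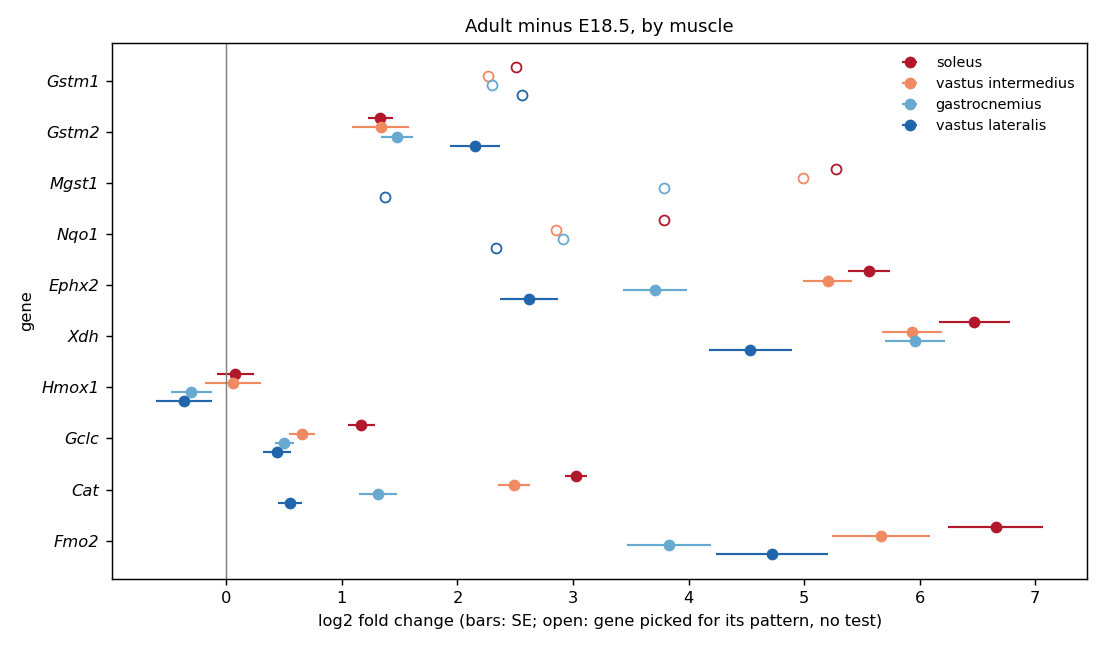
Fitted log2 fold change of adult minus E18.5 in each muscle under TMM scaling, with SE bars for tested genes and open symbols for genes picked for their pattern. Xdh, Fmo2 and Ephx2 lie farthest to the right and Hmox1 near 0. Fmo2 has bars in every muscle but is a description in all but gastrocnemius, where every library lay above the count filter. With library totals Gclc turns negative in 3 muscles, Cat in vastus lateralis and Hmox1 in all 4.

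Adipocyte markers differed between the stages along with the members. Their sum ran from 0.616 to 80.9 CPM at E18.5 and from 285 to 943 CPM in adults, and Retn and Lep were at 0 in all E18.5 soleus, vastus intermedius and gastrocnemius libraries. The part of adipocytes in the rises was not tested.

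The other genes of glutathione and oxidant defence, 130 in 7 lists, moved in both directions in adult muscle. Of 115 tested in slow-biased against fast-biased muscle, 43 were higher and 36 lower, near the 35.9% higher and 30.1% lower of all genes, with a median of 0.09 on the log2 scale against 0.08 over all genes. With library totals the split was 72 higher and 19 lower, and of all calls 80.9% were higher.

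Within glutathione synthesis and recycling, 3 of 17 rose and 9 fell, a balance that turned to 8 and 3 with library totals. Gss, glutathione synthetase, rose by 1.14 ± 0.14, from 28.4 to 59.5 CPM, as the catalytic subunit Gclc did. Gclm, the modifier subunit that partners Gclc, fell by 0.99 ± 0.09 (22.8 to 11.1 CPM, adjusted p = 9.04e-10). Chac1, which degrades glutathione, fell by 1.61 ± 0.37, at 32.7 ± 27.6 CPM in slow-biased and 102 ± 50.4 CPM in fast-biased libraries (SD).

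Other transferases were split as well, 3 of 15 higher and 4 lower (9 and 3 with library totals). Gstm4, at 17.2 CPM in fast-biased and 9.34 CPM in slow-biased muscle, fell by 0.83 ± 0.11. Gstm7, another mu-class gene, rose by 2.56 ± 0.28, from 1.97 to 10.4 CPM. Gstp1 of the pi class fell by 0.85 ± 0.07.

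Among the superoxide dismutases, glutathione peroxidases and peroxiredoxins, 8 of 15 rose and 5 fell (11 and 3 with library totals). Sod3, the secreted superoxide dismutase, rose by 1.05 ± 0.21, Prdx6 by 0.88 ± 0.08 and Gpx8 by 0.84 ± 0.12. In the thioredoxin and repair list, 5 of 14 rose and 6 fell (9 and 3 with library totals), with Msrb3, a methionine sulfoxide reductase, at -1.197 ± 0.07 and sulfiredoxin (Srxn1) up by 0.80 ± 0.15.

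NRF2 regulators and further targets gave 9 of 25 higher and 10 lower, and 15 and 6 with library totals. The small Maf genes Maff and Mafk rose by 2.04 ± 0.26 and 1.41 ± 0.18, while malic enzyme Me1 fell by 2.10 ± 0.11, from 395 to 89.4 CPM. Of the flavin, quinone, epoxide and aldehyde enzymes, 7 of 18 rose and 1 fell. Aox1, an aldehyde oxidase related to Xdh, rose by 1.89 ± 0.14, Aldh2 by 1.444 ± 0.14 and Ephx1, the microsomal epoxide hydrolase, by 1.05 ± 0.13. Of 11 tested genes in the list of reactive oxygen sources, 8 rose and 1 fell. Aifm2 led the list (1.443 ± 0.09), though as a coenzyme Q reductase it belongs with the defence enzymes rather than the sources.

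**Figure D4:**
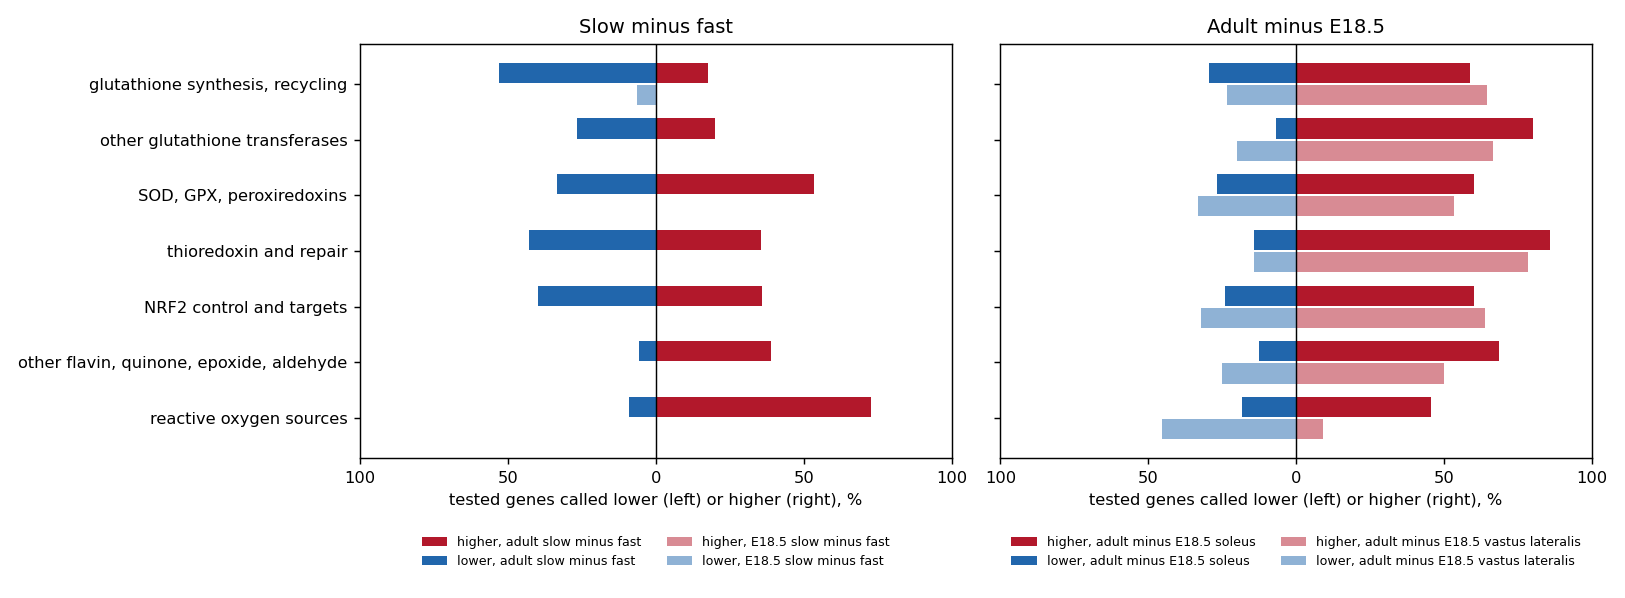
Share of tested genes of each list called higher (right, red) or lower (left, blue) under TMM scaling, in slow-biased minus fast-biased muscle of adults (dark) and E18.5 (pale), and in adult minus E18.5 soleus (dark) and vastus lateralis (pale). Adult slow-biased muscle had 43 genes higher and 36 lower over all lists, and E18.5 had 1 lower and none higher.

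In thigh against shank adult muscle 25 of 115 rose and 8 fell, against 11.6% and 7.55% of all genes. Gpx3, the plasma glutathione peroxidase, rose by 1.03 ± 0.10, from 106 to 216 CPM. With library totals 7 were higher and 16 lower. At E18.5 a single listed gene of 111, Ggt5, was called between slow-biased and fast-biased muscle (-0.69 ± 0.15, adjusted p = 0.0399), while thigh against shank called 30 higher and 4 lower (15 and 14 with library totals), where 14.1% and 10.7% of all genes were called. In that comparison all 10 muscle fibre markers rose in the thigh, and their part in the list was not tested.

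Between the stages, 74 of 113 listed genes rose in soleus and 22 fell, and in vastus lateralis 65 of 113 rose and 31 fell. Of all genes, 36.3% rose and 39.7% fell in soleus, and 36.4% and 42.6% in vastus lateralis. With library totals 52 listed genes rose and 40 fell in soleus, and 43 and 58 in vastus lateralis, so the balance turned in the latter. Several large changes were called in both scalings. Me1 rose by 3.01 ± 0.18 in soleus and 5.64 ± 0.17 in vastus lateralis. Aldh1a1, a retinaldehyde dehydrogenase, rose by 6.27 ± 0.37 and 7.57 ± 0.29 in the same muscles. Among the glutathione transferases, Mgst3 rose by 2.94 ± 0.21 in soleus and Gstk1 by 3.81 ± 0.18, while Gstcd fell by 2.65 ± 0.12. Prdx4, the peroxiredoxin of the endoplasmic reticulum, fell by 2.82 ± 0.10 in soleus and 3.43 ± 0.18 in vastus lateralis.

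The genes whose adult pattern was most like that of the picked members were taken over the 23 adult libraries, which share animals and muscles, among 10065 genes with at least 5 CPM. For Gstm1 they were Gnl3l (Pearson r = 0.963), Rps6kc1 (0.962) and Hjv (0.958), and Gstm2 ranked 20 at 0.940. Mgst1 was most like Ttc9 (0.966), Phyhd1 (0.956) and Stom (0.955), with Ephx2 at rank 12 (0.936) and Cat at rank 105 (0.904). Nqo1 was closest to Il6st (0.882), Selenos (0.878) and Arl6ip5 (0.867), and its highest value with another member was 0.575 with Gclc. Over the 24 E18.5 libraries Gstm1 was most like Cyp2d22 (0.873), Gstm2 (0.836) and Mast4 (0.831). Mgst1 and Nqo1 were below 5 CPM there.

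Members also varied between animals. Adult collection B had the highest Fmo2 in soleus (109 CPM, others 32.1 to 59.3), gastrocnemius (65.1 CPM) and vastus lateralis (32.2 CPM), and the highest Xdh in the same muscles (116, 82.4 and 64.0 CPM). Collection A had the lowest Fmo2 and the lowest Xdh in all 4 adult muscles. Collection B also had the highest summed tendon markers in soleus (586 CPM, others 44.8 to 521) and vastus lateralis (195 CPM, others 14.2 to 97.7), and in vastus lateralis the highest fibroblast (2784 CPM, others 1228 to 2564) and macrophage sums (159 CPM, others 53.1 to 152). In gastrocnemius, collection B had the lowest fibroblast sum (1598 CPM, others 1761 to 2873). The tendon sum there was 258 CPM in collection B and highest in collection A (593 CPM). The endothelial and adipocyte sums of collection B in soleus, 690.1 and 769 CPM, lay within those of the other animals. The part of these cells in the Fmo2 and Xdh levels was not tested. Gclc was highest in collection C in all 4 adult muscles, at 47.0 CPM in soleus and 27.5 CPM in vastus lateralis.

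**Figure D5:**
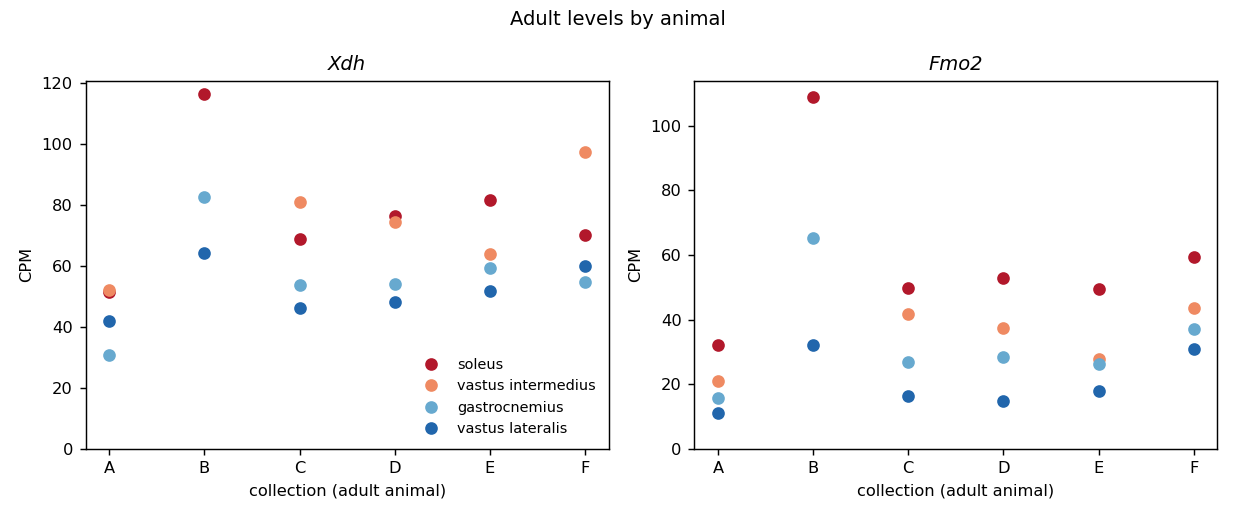
TMM-scaled CPM of Xdh and Fmo2 in each adult animal (collection A to F), with 1 point per muscle and no vastus intermedius point for collection B. Collection A is lowest in every muscle, and collection B is highest in soleus, gastrocnemius and vastus lateralis for both genes.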

How the data were processed

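RNA-seq read counts per gene were deposited by the authors for 48 libraries. Per the submitters' processing notes, reads were handled with STAR 2.7.11 and featureCounts (Subread 2.0.6) on build mm10, and Trimmomatic 0.39.0, FastQC 0.11.5 and DESeq2 1.44.0 are also named. No source used here gives the annotation or whether strand was counted, so overlapping and antisense genes may share reads. The authors' deposited tables of their own comparisons list a log2 fold change and a p-value per gene, per the file headers, and served here for gene symbols only. Totals were 14.9 to 32.4 M counts, and 3 counts, taken as the floor, are 0.0926 to 0.201 CPM. Gene symbols came from the authors' deposited tables for 18780 of 27179 genes and from RefSeq for 6501, and 1898 had none.

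From the counts, edgeR 4.0.16 in R 4.3.3 gave quasi-likelihood tests with TMM scaling, its default filter on low counts and Benjamini-Hochberg adjustment over all genes tested (threshold 0.05). The main tests fitted the group only and left out the pairing, although the muscles of a stage came from the same animals. CPM were TMM-scaled over the 48 libraries, and TPM used the deposited gene lengths. The 13 comparisons were slow-biased against fast-biased muscle (over both pairs and in each pair) and thigh against shank at each stage, adult against E18.5 in each muscle, and the slow-to-fast difference between the stages. Groups came from the labels. Column names carry a date tag, used as the animal. Libraries of 1 collection deviated together from their group means (mean correlation 0.122 in adults and 0.240 at E18.5, against -0.025 and -0.047 between collections). Over 115 replicate pairs the chi-square per degree of freedom was 10.8 or more, so no library was counted as a duplicate. The scripts were tested on simulated data.

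Alternatives were DESeq2 1.42.0, its size factors (RLE), no filter, the replicate block, keeping the doubted library and leaving out each collection in turn. Scaling by library totals was chosen after seeing the data. The members and gene lists were chosen with earlier results of these data known. Other genes were named from the lists as those with the largest called change among genes with a mean of at least 5 CPM, up to 3 per list.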

Additional observations from a re-analysis of the deposited data

Results flagged for a closer look

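In 9 of 80 groups of a gene and a muscle, 1 library stood apart from the others of its group by a gap test that chance alone passes in about 1 in 20 groups. Of these 9, 3 were the E18.5 vastus lateralis library of collection E: Mgst1 at 19.1 CPM (others 1.69 to 4.72), Xdh at 5.25 CPM (0.866 to 2.23) and Cat at 69.9 CPM (49.7 to 56.9). A further 4 were collection C. Gstm1 reached 179 CPM in adult gastrocnemius (others 151 to 161) and 40.3 CPM in E18.5 gastrocnemius (28.6 to 31.7). Gstm2 in E18.5 soleus was 9.23 CPM (6.50 to 7.24), and Fmo2 in E18.5 gastrocnemius was 4.77 CPM (1.21 to 2.42). Fmo2 in adult soleus of collection B was 109 CPM (32.1 to 59.3). Ephx2 in E18.5 vastus intermedius of collection F was low, at 2.92 CPM (5.46 to 6.31). That library also held 737 CPM of summed erythroid markers (others 58.2 to 138) and the lowest muscle fibre sum of its group, 29939.8 CPM (others 37193 to 48918), whose part in the value was not tested. Collection letters of the stages name different animals.

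The slow-to-fast difference differed between adults and E18.5 for 6 tested members in the test of that difference itself. On the log2 scale the adult less E18.5 values were 2.19 for Ephx2, 1.85 for Fmo2, 1.80 for Cat, 0.93 for Xdh, 0.41 for Gclc and -0.51 for Gstm2. Fmo2 was low at E18.5, where not every slow-biased library lay above the count filter.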

How the results depend on the processing

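Counts are of called members among the 7 tested. They include Fmo2, also in the 3 muscles where not every E18.5 library lay above the count filter. Its calls between stages there are a description and no test. In adult thigh against shank the count was 2 with the doubted library in place of 5, and DESeq2 called 2 in place of 1 in E18.5 soleus against gastrocnemius and in E18.5 thigh against shank. Without 1 collection, counts ran from 6 to 6 in adult slow against fast, 4 to 6 in each adult pair, 3 to 5 in adult thigh against shank, 0 to 1 in E18.5 slow against fast and its shank pair, 0 to 0 in its thigh pair, 0 to 2 in E18.5 thigh against shank, 6 to 7 in gastrocnemius between stages, 6 to 6 in the other 3 muscles and 5 to 6 in the test between stages.

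With the collection as a replicate block, the pairing changed the calls of Fmo2 in the adult thigh pair (1.01) and Ephx2 in adult thigh against shank (-0.46) and no other, and Xdh in the latter turned from -0.08 to 0.0069, uncalled in both.

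With library totals, chosen after seeing the data, values turned for Gclc (-0.094, -0.60 and -0.61) and Cat in vastus lateralis (-0.50) between stages, Hmox1 in soleus (-0.62) and vastus intermedius (-0.71), E18.5 slow against fast Gclc (-0.00063) and Cat (-0.0079), and E18.5 thigh against shank Gstm2 (-0.073) and Cat (-0.015). The fitted Nqo1 difference in the adult thigh pair, with no test, turned from -0.09 to 0.21. For Gstm1, also with no test, the slow-to-fast difference of adults less that of E18.5 turned from -0.07 to 0.31. Library totals shifted the median of all genes by 0.33 in adult slow against fast, where the share of calls that were higher went from 54.4% to 80.9%. In adult thigh against shank that share went from 60.5% to 15.0%, in E18.5 thigh against shank from 56.7% to 19.3%, and in the test between stages from 52.4% to 83.3%.

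Without 1 collection, 17 results turned sign, none of them called. For Hmox1 the ranges were -0.035 to 0.23 in the adult thigh pair, -0.12 to 0.032 in adult and -0.092 to 0.031 in E18.5 thigh against shank, -0.10 to 0.057 in the E18.5 shank pair, and -0.015 to 0.16 in soleus and -0.096 to 0.18 in vastus intermedius between stages. For Ephx2 they were -0.012 to 0.10 in E18.5 slow against fast, -0.026 to 0.17 in its shank pair and -0.15 to 0.12 in its thigh pair. For Xdh they were -0.18 to 0.042 in adult thigh against shank and -0.39 to 0.15 in the E18.5 shank pair. For Cat they were -0.020 to 0.057 in E18.5 slow against fast and -0.087 to 0.069 in its thigh pair, for Gclc -0.025 to 0.029 in E18.5 slow against fast and -0.031 to 0.043 in E18.5 thigh against shank, for Fmo2 -0.60 to 0.18 in the E18.5 thigh pair and for Gstm2 -0.065 to 0.19 in E18.5 thigh against shank. The cause was not tested. Depth limits Fmo2 and Xdh at E18.5, where libraries held as few as 2 and 13 reads of them.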
